A study of Mus musculus with 5 samples.

Results

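Plin2, Pdk4, Cpt1a, Angptl4, Acot1, Acot2, Cidec, Fabp4 and Pnpla2 are 9 genes of lipid droplets and of the fasting response, out of 35478 genes listed for each kidney library. They were matched by gene symbol, and they were chosen from the measured values of these libraries, because Plin2, Pdk4 and Cpt1a stood apart in 1 of the 5 mice. Their levels and fold changes are therefore given as a description, and counts of how many of them pass a threshold support nothing. RNA-seq libraries were made from kidneys of 5 mice, 1 library each, of which 2 were Prdm16fl/fl and 3 were Ksp-Cre/Prdm16fl/fl, to ask how loss of Prdm16 from tubular epithelium changed expression in the injured kidney. The labels write these genotypes as PRDM16flox/flox and Ksp-Cre/PRDM16 flox/flox. They are called controls and Ksp-Cre mice below. The labels give strain C57BL/6J;129 for both groups, where the sample titles name C57BL/6J alone, and both carried the floxed allele, with loxP sites around exon 9 of Prdm16, a gene for a transcriptional regulator of mitochondrial and fat cell genes. Ksp-Cre, driven by a promoter of tubular epithelium, was present in the second group only. The study's methods give male littermates aged 7 to 8 weeks, and kidney cortex as the source of the RNA. Every mouse had unilateral ischemia-reperfusion injury (UIRI): the left renal pedicle was clamped for 35 minutes at 38.5°C, the right kidney was removed on day 10, and the mouse was killed 24 hours later, 11 days after injury. No uninjured kidney was analysed here.

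As background, cells keep surplus fatty acids as triglyceride in lipid droplets, which are coated by perilipins and opened by lipases. During fasting, fatty acids reaching the cell activate the nuclear receptor PPARα, which together with glucocorticoid and FoxO signals turns on genes that move fatty acids into mitochondria and hold back the burning of glucose. Tubular epithelium, the proximal tubule above all, runs mainly on fatty acid oxidation, and lipid droplets gather in injured tubules.

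The kidney of Ksp-Cre mouse 3 stood apart from the other 4 over the whole transcriptome, not in these genes alone. In this library 347 genes lay at least 2-fold above the highest of the others and 800 lay at least 2-fold below the lowest, against 8 to 43 and 43 to 87 genes when each of the other 4 libraries was set against the rest. The Pearson correlation of log2 CPM, taken across genes, which are not independent replicates, was 0.924 to 0.948 between this library and the others and 0.961 to 0.991 among the others. Its depth did not set it apart, with 15470435 counts within the range of 14939040 to 16425161 over the 5 libraries. Fold changes of the 9 genes and counts of calls are therefore given with and without this mouse. Prdm16 itself measured 25.3 and 20.02 CPM (counts per 1000000 after TMM scaling) in controls 1 and 3, and 17.1, 17.0 and 18.0 CPM in Ksp-Cre mice 1, 2 and 3. Its log2 fold change of -0.38 (SE 0.155) did not pass the threshold (edgeR, adjusted p = 0.259 over 16394 genes), nor did the value of -0.41 without mouse 3 (adjusted p = 0.088). Cre acts in part of the kidney's cells only, and the count covers the whole gene, so it does not isolate exon 9.

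All 9 genes had their highest level in Ksp-Cre mouse 3, and 8 of them lay at least 2-fold above the next library there, all but Fabp4. Over all 16394 genes tested, this library was the highest for 32.0% and at least 2-fold above the next for 2.12%. The rule used this pattern, so nothing is read from the counts. On the log2 CPM scale, the difference between this mouse and the mean of the other 4 had a median of 2.06 over the 9 genes and ran from 0.87 for Fabp4 to 3.37 for Pdk4. Over all genes the median of this difference was -0.006, with the 5th percentile at -1.34 and the 95th at 0.947. Fabp4 therefore sat inside the central range of all genes, and the other 8 lay beyond its upper end. Set against Ksp-Cre mice 1 and 2 alone, the median over the 9 genes was 1.89. In RNA of a mixed tissue such as kidney cortex, more cells of one type and more RNA per cell cannot be told apart.

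**Figure D1:**
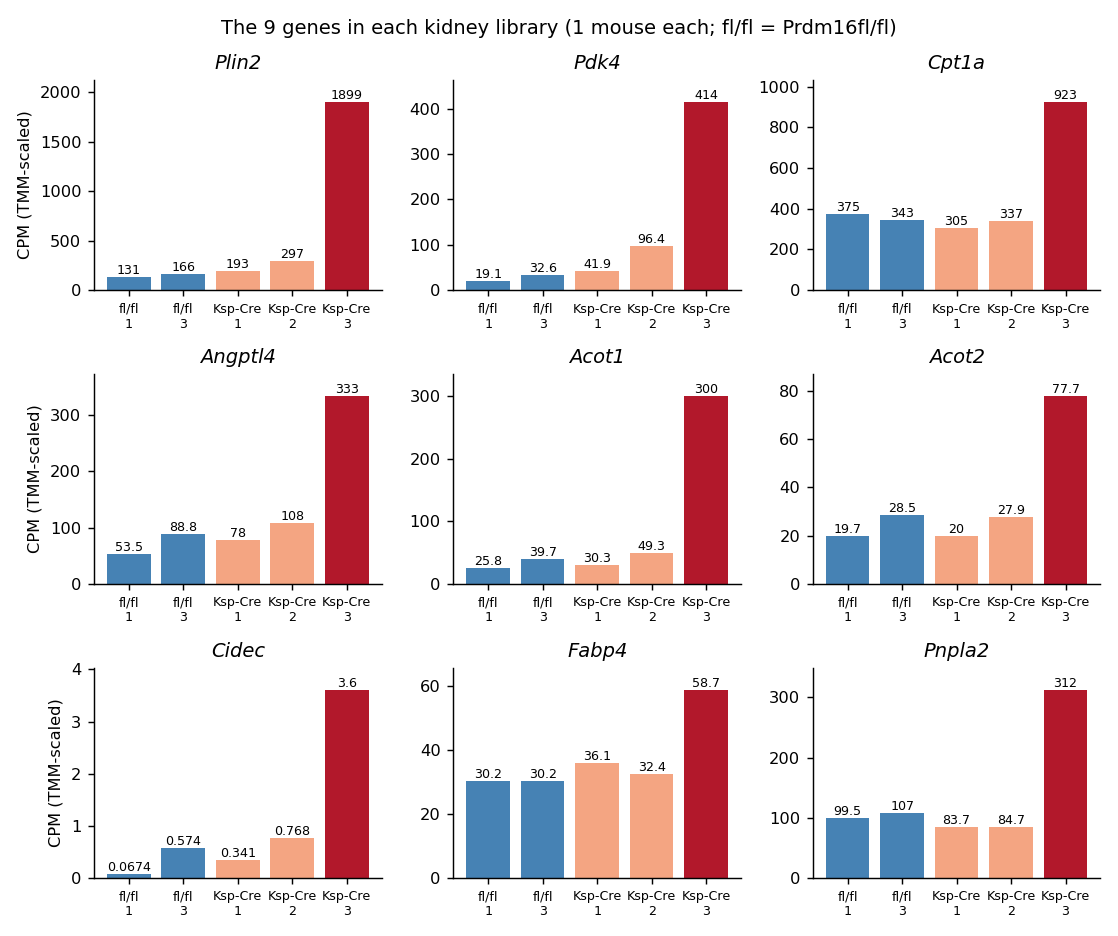
TMM-scaled counts per 1000000 (CPM) of each of the 9 genes, 1 bar per kidney library, with blue for the Prdm16fl/fl controls (fl/fl), orange for Ksp-Cre mice 1 and 2 and red for Ksp-Cre mouse 3; each panel has its own axis from 0. The red bar is the highest in all 9 panels, from 58.7 CPM against at most 36.1 CPM for Fabp4 to 1899 CPM against at most 297 CPM for Plin2.

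Plin2 encodes the perilipin that coats lipid droplets in most cells outside fat tissue. Its level was 131 and 166 CPM in controls 1 and 3, and 193, 297 and 1899 CPM in Ksp-Cre mice 1, 2 and 3. The groups did not overlap, and mouse 3 lay 6.39-fold above the next library. The means were 148 ± 24.3 CPM (SD, n = 2) and 797 ± 956 CPM (SD, n = 3), so the spread within the Ksp-Cre group was larger than its mean. The log2 fold change was 2.42 (SE 1.04) with all 5 libraries. Without mouse 3 the Ksp-Cre mean was 245 ± 73.3 CPM (SD, n = 2), and the log2 fold change was 0.73 (SE 0.19). By TPM, the deposited value that corrects for gene length, Plin2 was the 1613th and 1372nd highest gene in the controls, the 964th and 576th in Ksp-Cre mice 1 and 2, and the 59th in mouse 3.

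Pdk4 encodes a kinase that switches off pyruvate dehydrogenase and so spares glucose. It measured 19.1 and 32.6 CPM in controls 1 and 3, and 41.9, 96.4 and 414 CPM in Ksp-Cre mice 1, 2 and 3. The order of the 5 libraries was the same as for Plin2, with all 3 Ksp-Cre mice above both controls. The means were 25.9 ± 9.55 CPM (SD, n = 2) and 184 ± 201 CPM (SD, n = 3), a log2 fold change of 2.83 (SE 1.01). Without mouse 3 the log2 fold change was 1.4 (SE 0.36), the largest among the members in that fit. Plin2, Pdk4 and Fabp4 were the 3 of 9 genes whose Ksp-Cre libraries all lay above both control libraries, an arrangement found in 20.3% of all genes tested.

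Cpt1a encodes the carnitine palmitoyltransferase that admits long-chain fatty acids into mitochondria. It measured 375 and 343 CPM in controls 1 and 3, and 305, 337 and 923 CPM in Ksp-Cre mice 1, 2 and 3. Mouse 3 lay 2.46-fold above the next library, which was a control, and Ksp-Cre mice 1 and 2 lay below both controls. The log2 fold change was 0.54 (SE 0.50) with all libraries and -0.16 (SE 0.11) without mouse 3, so its direction rested on that mouse.

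Acot1 and Acot2 encode acyl-CoA thioesterases, of the cytosol and of mitochondria respectively, which free fatty acids from coenzyme A. Acot1 measured 25.8 and 39.7 CPM in controls 1 and 3, and 30.3, 49.3 and 299.9 CPM in Ksp-Cre mice 1, 2 and 3. Apart from mouse 3 its groups overlapped, and mouse 3 lay 6.08-fold above the next library. Acot2 measured 19.7 and 28.5 CPM in the controls, and 19.98, 27.9 and 77.7 CPM in the Ksp-Cre mice, with the highest value again in mouse 3. Here the other 4 libraries interleaved and the step to mouse 3 was 2.73-fold. The log2 fold changes were 1.95 (SE 1.02) for Acot1 and 0.80 (SE 0.59) for Acot2 with all libraries, and 0.29 (SE 0.25) and -0.005 (SE 0.20) without mouse 3. The deposited tables list both genes on the plus strand of chromosome 12, at 84034635-84040651 for Acot2 and 84056276-84064444 for Acot1. The genes share sequence: of the 2123 windows of 150 bases, the length of 1 read, in the longest coding transcript of Acot1 (GENCODE M21), 209 also occurred in Acot2 and 263 in any other gene, so a read within these stretches matches more than 1 gene. How such reads were counted is not given in the sources used here, and the split between the pair is uncertain. No such window was shared with another gene for the other 7 members. The sum of both genes does not depend on how reads were split between them. It can still depend on shared reads that were left out or given to other genes. The sum was 45.5 and 68.2 CPM in the controls, and 50.3, 77.2 and 378 CPM in the Ksp-Cre mice. The ratio of Acot1 to Acot2 counts was 1.31 to 1.77 in the other 4 libraries and 3.86 in mouse 3.

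The window of 250 bases before the annotated start is shown for the 3 genes on which the choice rested and for Acot1, the gene nearest to Plin2 in its step to mouse 3. The sequences come from RefSeq on GRCm38.p6, which is not the build of the coordinates in the deposited tables, and 7 of the 9 members had an entry. Angptl4 and Fabp4 had none. Capitals mark the letters AGGTCA, the core motif of PPAR and related nuclear receptors, on either strand, where they read TGACCT on the strand shown.
Plin2, chr4:86670060-86670309, minus strand: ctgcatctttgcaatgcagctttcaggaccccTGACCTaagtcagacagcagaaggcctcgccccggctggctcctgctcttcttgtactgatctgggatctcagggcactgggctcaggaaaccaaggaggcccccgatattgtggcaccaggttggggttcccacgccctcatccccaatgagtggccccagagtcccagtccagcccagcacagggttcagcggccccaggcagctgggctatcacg
Pdk4, chr6:5496279-5496528, minus strand: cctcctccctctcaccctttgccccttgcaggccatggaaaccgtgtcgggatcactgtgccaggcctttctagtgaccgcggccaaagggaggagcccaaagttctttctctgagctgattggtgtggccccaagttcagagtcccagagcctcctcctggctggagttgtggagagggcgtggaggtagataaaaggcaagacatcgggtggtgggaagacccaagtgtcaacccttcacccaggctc
Cpt1a, chr19:3323051-3323300, plus strand: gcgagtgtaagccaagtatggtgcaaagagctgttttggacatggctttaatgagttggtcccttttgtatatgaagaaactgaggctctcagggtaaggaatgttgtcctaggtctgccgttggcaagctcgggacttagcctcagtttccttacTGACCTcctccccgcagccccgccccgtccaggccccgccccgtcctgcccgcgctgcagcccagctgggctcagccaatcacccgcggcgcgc
Acot1, chr12:84009252-84009501, plus strand: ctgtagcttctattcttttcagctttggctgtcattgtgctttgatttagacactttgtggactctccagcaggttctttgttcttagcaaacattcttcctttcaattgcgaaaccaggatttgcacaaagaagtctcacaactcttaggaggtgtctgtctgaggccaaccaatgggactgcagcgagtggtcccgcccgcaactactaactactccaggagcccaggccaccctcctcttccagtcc
The core motif occurred once in the window of Plin2 and once in that of Cpt1a, and not in the windows of the other 5 matched members, of which Cidec has 2. Of 32851 such windows over all genes, 14.0% hold it. Both strands were searched for a pair of AGGTCA motifs with 1 base between them, an exact form of the PPAR response element. It was in no member's window and in 0.0335% of all windows, and the looser pair of AGGNCA motifs was in 0.338%. An exact form of the glucocorticoid response element, AGAACA and TGTTCT with 3 bases between, was in no member's window and in 0.00913% of all. Its looser form of AGNACA and TGTNCT was in 0.0609%. The TATAAA letters were in no member's window either, against 12.4% of all. Pairs this rare would hardly be met in so few windows, and forms with further mismatches were not searched, so their absence decides nothing. These counts describe the letters in these windows only.

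Pnpla2 encodes ATGL, the lipase that takes the first fatty acid off triglyceride. It measured 99.5 and 107 CPM in controls 1 and 3, and 83.7, 84.7 and 312 CPM in Ksp-Cre mice 1, 2 and 3. As for Cpt1a, Ksp-Cre mice 1 and 2 lay below both controls and mouse 3 far above them. The log2 fold change was 0.63 (SE 0.61) with all libraries and -0.29 (SE 0.10) without mouse 3. Without that mouse 3 members, Cpt1a, Acot2 and Pnpla2, were at or below 0 and the other 5 that could be tested were above it.

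Angptl4 encodes a secreted inhibitor of lipoprotein lipase. It measured 53.5 and 88.8 CPM in controls 1 and 3, and 78.0, 108 and 333 CPM in Ksp-Cre mice 1, 2 and 3. Ksp-Cre mouse 1 lay between the controls, and mouse 3 lay 3.08-fold above mouse 2. The log2 fold change was 1.28 (SE 0.66) with all libraries and 0.39 (SE 0.23) without mouse 3. Lpl, which encodes the lipase that Angptl4 inhibits, measured 309 and 341 CPM in the controls, and 123, 119.5 and 116 CPM in Ksp-Cre mice 1, 2 and 3. It was lower in every Ksp-Cre mouse, to a like extent in all 3, and its log2 fold change of -1.44 (SE 0.12) passed the threshold (edgeR, adjusted p = 0.0242). The call held in 8 of 13 other settings, with adjusted p from 1.08e-19 to 0.485 over all 13, and was lost with the mouse number as a block and without either control or Ksp-Cre mouse 1 or 2. Gpihbp1, the endothelial anchor of this lipase, was not called and measured 6.34 and 6.46 CPM against 8.91, 5.73 and 15.7 CPM.

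Fabp4 and Cidec are best known from fat cells. Fabp4, a fatty acid-binding protein also made by endothelium and macrophages, measured 30.2 CPM in both controls, and 36.1, 32.4 and 58.7 CPM in Ksp-Cre mice 1, 2 and 3. All 3 Ksp-Cre mice lay above both controls, and the step from the next library to mouse 3 was 1.63-fold, the smallest of the 9. The log2 fold change was 0.49 (SE 0.27) with all libraries and 0.19 (SE 0.11) without mouse 3. Cidec, a protein that fuses lipid droplets into larger ones, was near the limit of detection, with 1 and 8 counts in the controls, and 6, 13 and 54 counts in the Ksp-Cre mice. The exact Poisson 95% interval of the raw count was 40.6 to 70.5 in mouse 3 and 6.92 to 22.2 in the next library. These intervals cover counting error only. Since the members were chosen from these libraries, nothing is read from the gap between them. Cidec had a log2 fold change of 2.26 (SE 1.27), and without mouse 3 it did not pass the filter on low counts.

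Most markers of fat cells were near 0 in all kidneys. Of 8 white adipocyte markers, Adipoq, Lep, Retn, Cfd and Plin1 were at or below 0.236 CPM in every library, and Adipoq and Lep had 0 counts in Ksp-Cre mouse 3, which allows up to 3 counts. The summed level of the 8 was 17.7 to 18.3 CPM in the other 4 libraries and 34.1 CPM in mouse 3, where Lipe, a lipase not limited to fat, gave 29.6 CPM, beside 15.7 to 16.7 CPM in the others. Lipe and Thrsp, the 2 markers that passed the filter on low counts, were both highest in mouse 3, Thrsp at 3.998 CPM against 1.06 to 1.70 CPM, and neither was called with or without this mouse. The 6 brown adipocyte markers summed to between 0.607 and 0.945 CPM, with Elovl3 at 0 counts in all libraries. The 9 endothelial markers summed to 302 to 359.8 CPM in the other 4 libraries and 450 CPM in mouse 3, none of them at 0. The 10 macrophage markers, none at 0, summed to 984 and 1379 CPM in the controls, and to 1607, 1467 and 791 CPM in Ksp-Cre mice 1, 2 and 3. Of these markers 1 was called higher with all libraries and 6 without mouse 3. The part of endothelium and macrophages in the level of Fabp4 was not tested.

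Summed markers of the tubule differed between the genotypes and in mouse 3. The 12 proximal tubule markers summed to 23120 and 29470 CPM in the controls and to 7492, 9428 and 11750 CPM in Ksp-Cre mice 1, 2 and 3, and the 8 tubular injury markers to 13520 and 14640 CPM against 29180, 30360 and 36010 CPM. Among the Ksp-Cre mice, mouse 3 had the highest proximal tubule sum, yet 9 of these 12 markers were lowest there. Their median log2 CPM difference from the control mean was -1.06, -1.05 and -1.75 in Ksp-Cre mice 1, 2 and 3. With all libraries 2 of the 12 were called lower and 0 of the 8 were called, and without mouse 3 these were 11 lower and 8 higher. The 7 markers of the loop of Henle and distal tubule summed to 4689 and 4908 CPM against 3699, 3018 and 1545 CPM, with all 7 lowest in mouse 3, 0 called with all libraries and 3 called lower without it. Of the markers of these tubule segments, Pvalb of the distal tubule was at 0 counts in mouse 3, which allows up to 3 counts, after 186 and 153 counts in the controls and 32 and 7 in Ksp-Cre mice 1 and 2, and no other was at 0 in any library. Other cell types differed too. The 5 red blood cell markers summed to 6.67 and 10.8 CPM in the controls against 151, 150.3 and 40.5 CPM, with 0 called with all libraries and 5 called higher without mouse 3. The 8 fibroblast markers summed to 381 and 588 CPM against 919, 880.4 and 624 CPM, with 0 called and 4 called higher without mouse 3. The 5 podocyte markers summed to 687 and 527 CPM against 383, 392 and 430.4 CPM, with 1 called lower and 4 lower without mouse 3. The 6 collecting duct markers summed to 697 and 579 CPM against 532, 336 and 357 CPM, with 0 called and 3 lower without mouse 3. The part of these shifts in the levels of the 9 genes was not tested. How much medulla came with each cortex sample is not given in the sources used here.

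**Figure D2:**
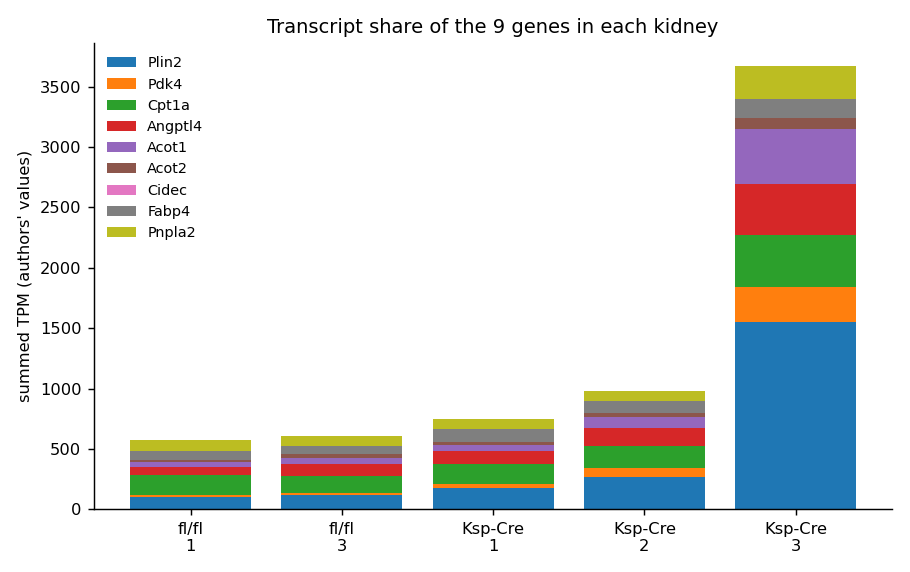
Summed TPM, a length-corrected share of the transcripts in a library, of the 9 genes in each of the 5 kidneys, stacked by gene; Cidec, at most 4.90 TPM, is too low to be seen. The stack reaches 571 and 609.6 TPM in the controls, 750.4 and 978 TPM in Ksp-Cre mice 1 and 2, and 3675 TPM in mouse 3, where Plin2 alone makes 42.2% of it.

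Compared per length, the balance among the 9 genes differed between kidneys. In the controls Cpt1a was the highest of them, at 171 and 142 TPM, followed by Plin2 at 103 and 118 TPM. In Ksp-Cre mouse 1 these genes were close, with 162 TPM for Cpt1a and 177 TPM for Plin2. Plin2 was already ahead in Ksp-Cre mouse 2, at 272 TPM against 179 TPM for Cpt1a. In Ksp-Cre mouse 3 Plin2 led with 1551 TPM, ahead of Acot1 with 460, Cpt1a with 438 and Angptl4 with 418 TPM. Plin2 made 18.0% and 19.3% of the summed TPM of the 9 genes in the controls, 23.6% and 27.8% in Ksp-Cre mice 1 and 2, and 42.2% in mouse 3.

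With all 5 libraries the genotype difference passed the threshold of adjusted p under 0.05 for 0 of the 9 genes by edgeR and for 0 by DESeq2, and each tool had 1 gene at an unadjusted p under 0.05. Of 25633 genes fitted, DESeq2 called 303 higher and 863 lower, with 2921 at an unadjusted p under 0.05. Over all 16394 genes edgeR called 0.104% higher and 0.872% lower in Ksp-Cre mice, with 3090 at an unadjusted p under 0.05. The median log2 fold change was 1.28 over the members and 0.038 over all genes. Without mouse 3, where 8 members could be tested, Plin2 and Pdk4 were called higher and 0 were called lower, and over all genes 7.82% were called higher and 11.0% lower. The median over the 8 members was then 0.24. Since the members were chosen from these libraries, nothing is read from these counts.

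**Figure D3:**
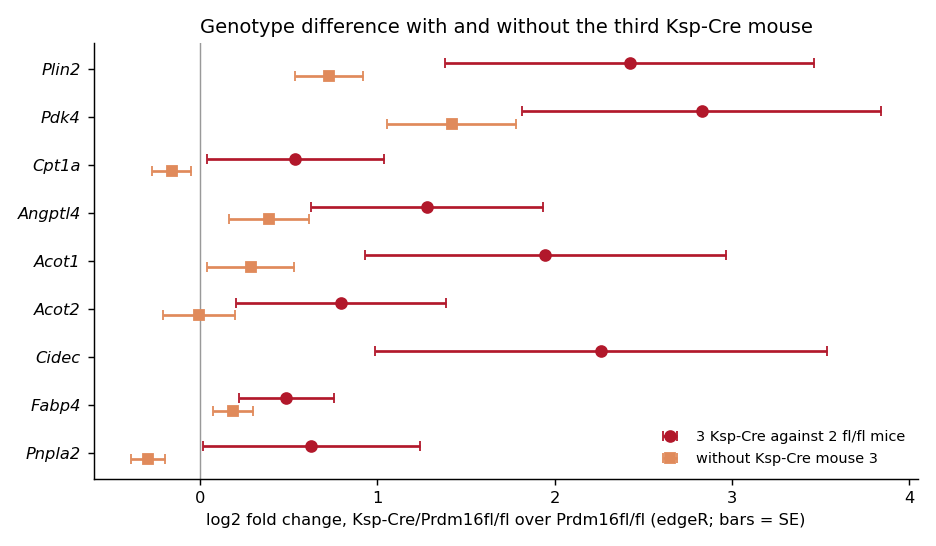
Log2 fold change of each gene between Ksp-Cre and controls from edgeR, with the standard error as a bar, for 3 against 2 mice (red circles) and without Ksp-Cre mouse 3 (orange squares; Cidec could not be tested). All 9 red circles lie above 0, from 0.49 to 2.83, and without mouse 3 the values run from -0.29 for Pnpla2 to 1.4 for Pdk4.

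**Figure D4:**
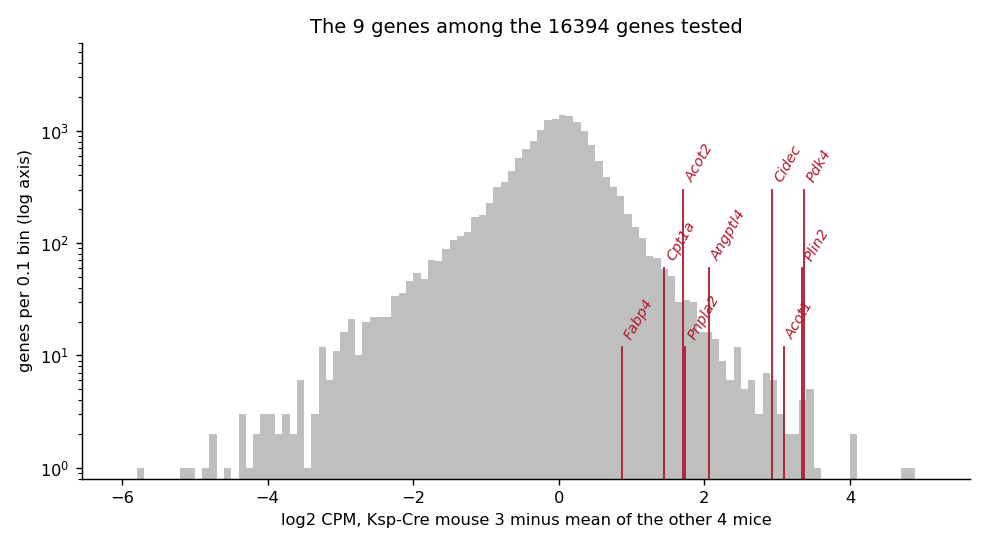
Number of genes (log axis) by the difference in log2 CPM between Ksp-Cre mouse 3 and the mean of the other 4 mice, for 16394 genes in bins 0.1 wide, with the 9 genes marked by red lines whose height has no meaning. The genes run from 0.87 for Fabp4, within the bulk of all genes, to 3.37 for Pdk4, the 11th highest difference of all; they were chosen from this pattern.

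The pathway around the 9 genes was described by 8 lists that hold none of them. The lists were made with earlier results of these data known, so their counts are a description as well. Together 150 list genes were tested, of which 0 were called higher and 3 lower, Lpl, Acot13 and Trim63. Their median log2 fold change was -0.02, beside 0.038 over all genes. Without mouse 3, 8 list genes were called higher and 43 lower, and the median was -0.21. The median of the members was above that of the lists in both fits, by a choice that had used their values.

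Of the other lipid droplet proteins, 0 of 15 tested were called in either direction, with 0 higher and 5 lower without mouse 3. Plin4, a perilipin, measured 4.31 CPM in both controls, and 2.61, 5.55 and 18.7 CPM in the Ksp-Cre mice. Plin5, the perilipin that ties droplets to mitochondria, measured 5.26 and 7.82 CPM in the controls, and 2.33, 5.20 and 16.1 CPM in the Ksp-Cre mice. Both were highest in mouse 3. The other libraries overlapped for Plin4, whereas for Plin5 Ksp-Cre mice 1 and 2 lay below both controls. Plin3 was 73.0 and 65.0 CPM against 79.1, 89.3 and 99.9 CPM, a narrow range beside that of Plin2. Plin1, the perilipin of fat cells, had between 0 and 4 counts in a library. Hilpda, a droplet protein that inhibits ATGL, measured 2.22 and 3.44 CPM against 4.09, 4.37 and 8.66 CPM. G0s2, another inhibitor of ATGL, did not separate the groups, with 62.3 and 111 CPM against 40.8, 72.1 and 112 CPM. Dgat2, which makes triglyceride, measured 148 and 169 CPM against 79.2, 81.6 and 136 CPM. Its adjusted p was 0.235 with all libraries and 0.001 without mouse 3 (edgeR), when Dgat2 fell by 0.98 on the log2 scale. Fitm1, a droplet-forming protein, measured 23.7 and 48.4 CPM against 10.6, 13.1 and 7.26 CPM, with an adjusted p of 0.0743, and of 0.008 without mouse 3.

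Of 10 lipolysis enzymes, 0 were called with all libraries, and 3 were called lower without mouse 3. Ces1d and Ces1f, carboxylesterases of the proximal tubule and liver, were low in all Ksp-Cre mice. Ces1f measured 570.1 and 687 CPM against 152, 234 and 121 CPM, with an adjusted p of 0.0505 (edgeR), and 0.00129 without mouse 3. Ces1d measured 337 and 424 CPM against 91.6, 75.8 and 22.7 CPM, with an adjusted p of 0.0785, and 0.000225 without mouse 3. Aadac, another lipid esterase, measured 167 and 196 CPM against 102, 114 and 72.0 CPM. Of the 10 enzymes, Aadac, Ces1d and Ces1f were the 3 called lower without mouse 3. Mgll, the monoglyceride lipase, measured 24.7 and 31.9 CPM against 19.6, 21.1 and 68.8 CPM. Abhd5, the co-activator of ATGL, measured 53.9 and 56.4 CPM against 47.5, 46.0 and 66.6 CPM. Mgll and Abhd5 thus resembled Pnpla2, with Ksp-Cre mice 1 and 2 below both controls and mouse 3 the highest. Abhd6 and Pnpla8 of this list, picked after their values were seen, had this arrangement too. Neither Mgll nor Abhd5 was called with all libraries (edgeR, adjusted p = 0.772 and 0.915) or without mouse 3 (adjusted p = 0.0543 and 0.126).

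Among 13 genes of fatty acid supply, Lpl was the 1 gene called, and without mouse 3 there were 1 called higher and 3 lower. Acsl1, which activates long-chain fatty acids, measured 94.2 and 101 CPM in the controls, and 86.3, 106 and 354 CPM in the Ksp-Cre mice, with the other 4 libraries within a narrow range. Acsl4 measured 109 CPM in both controls against 138, 164 and 230.5 CPM, and it was called higher without mouse 3 (adjusted p = 0.0211, log2 fold change 0.47).

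Of 29 tested PPARα and fasting targets other than the members, 0 were called with all libraries, and 1 higher and 7 lower without mouse 3. In mouse 3, 18 of the 29 had their highest level and 9 lay at least 2-fold above the next library, beside 32.0% and 2.12% of all genes. The list was made with earlier results of these data known, so nothing is read from these counts. The median difference of this list between mouse 3 and the other mice was 0.66 on the log2 CPM scale. Cyp4a14, a fatty acid omega-hydroxylase, measured 44.0 and 171 CPM in the controls, and 95.5, 257 and 670.1 CPM in the Ksp-Cre mice. Its groups overlapped apart from mouse 3, and control 1 was the lowest library. Acadm, the medium-chain dehydrogenase of β-oxidation, did not share this order, with 549 and 861 CPM against 295, 321 and 307 CPM. Its log2 fold change was -1.20 (SE 0.21), with an adjusted p of 0.0565 with all libraries and of 0.00466 without mouse 3. Acadm was therefore as low in mouse 3 as in Ksp-Cre mice 1 and 2. Cyp4a12b, a relative of Cyp4a14, measured 15.2 and 19.7 CPM against 19.2, 24.99 and 50.3 CPM. Ehhadh, an enzyme of peroxisomal β-oxidation that was picked after its values were seen, was highest in mouse 3, at 1221 CPM against 170.2 to 416 CPM.

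**Figure D5:**
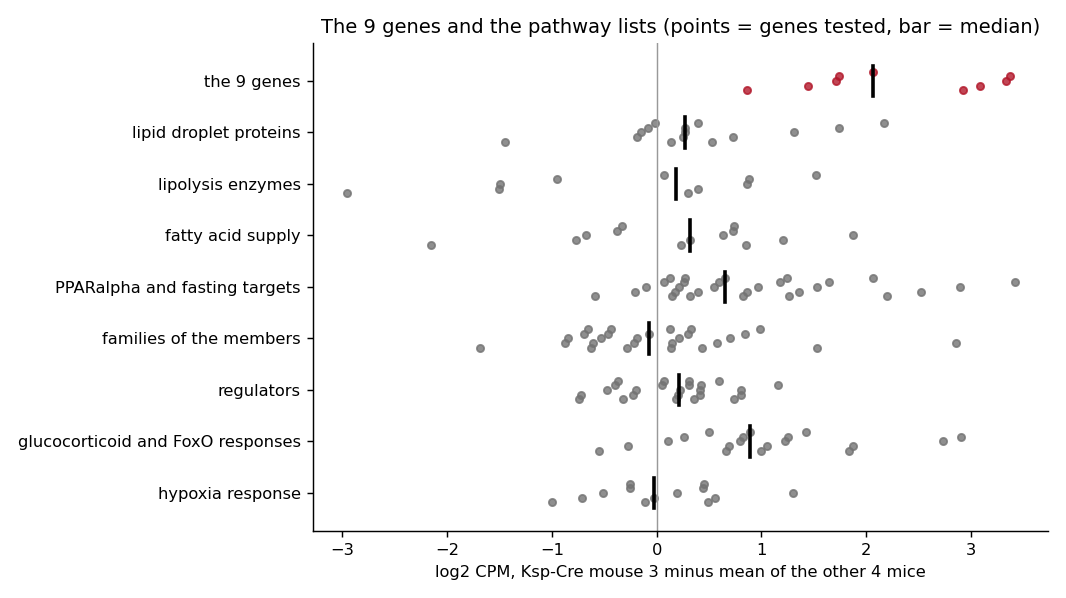
Difference in log2 CPM between Ksp-Cre mouse 3 and the mean of the other 4 mice for the 9 genes (red, chosen from this pattern) and for each tested gene of 8 pathway lists (grey), with the median of each set as a black bar. The median is 2.06 for the 9 genes, 0.89 for glucocorticoid and FoxO responses, 0.66 for PPARα and fasting targets, and between -0.07 and 0.31 for the other 6 lists.

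Of 27 tested relatives of the members, 0 were called higher and 1, Acot13, lower, with 0 higher and 10 lower without mouse 3, and the median difference between mouse 3 and the other mice was -0.07 on the log2 CPM scale. Acot13, a mitochondrial thioesterase, measured 119 and 135 CPM in the controls against 70.3, 71.9 and 58.8 CPM, a log2 fold change of -0.93 (SE 0.14, edgeR adjusted p = 0.0476). Its adjusted p ran from 2.98e-05 to 0.521 over 13 other settings and passed in 4. Pdk2, the kinase relative of Pdk4, measured 229 and 231.5 CPM against 115.5, 123 and 183 CPM, and it was called lower without mouse 3 (adjusted p = 0.000896). Pdk1 and Pdk3 were not called in either fit, and in mouse 3 they measured 42.6 and 39.6 CPM, below both controls. Fabp3 measured 85.7 and 78.7 CPM against 49.95, 32.0 and 31.8 CPM, with an adjusted p of 0.0726 and of 0.00855 without mouse 3. Fabp5 was lowest in mouse 3, at 2.13 CPM against 6.73 to 7.75 CPM, whereas Fabp4 was highest there. Fabp1 did not separate the groups, at 0.472 and 2.51 CPM against 2.55, 4.49 and 1.60 CPM. Acot5, picked after its values were seen, was not tested, at 0.0674 to 0.431 CPM in the other 4 libraries and 6.06 CPM in mouse 3.

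Of 24 tested regulators of these genes, 0 were called with all libraries, 2 higher and 5 lower without mouse 3, and in mouse 3 none lay 2-fold above the next library. Ppara measured 117 and 122 CPM against 75.2, 109 and 158 CPM, and Pparg 2.53 to 4.16 CPM over all libraries with no order by genotype. Ppargc1a, which encodes PGC-1α, a coactivator of PPARα and of mitochondrial genes, measured 72.6 and 71.8 CPM in the controls against 51.4, 55.5 and 53.2 CPM. All 3 Ksp-Cre mice lay below both controls, but its adjusted p was 0.102 with all libraries, and 0.0171 without mouse 3. Over 13 other settings the adjusted p of Ppargc1a ran from 0.0171 to 0.573. Nr3c1, the glucocorticoid receptor, measured 92.8 and 92.9 CPM against 116, 125.5 and 85.0 CPM, so that mouse 3 was the lowest, and Nr3c1 was called higher without mouse 3 (adjusted p = 0.027). Sirt3, a mitochondrial deacetylase, was 76.0 and 90.8 CPM against 38.4, 40.9 and 50.1 CPM (adjusted p = 0.0541, and 0.000989 without mouse 3). Lpin1, a phosphatase and coactivator in fat metabolism, was below both controls in every Ksp-Cre mouse, with 84.6 and 79.1 CPM against 36.1, 49.5 and 73.0 CPM, and it was called lower without mouse 3 (adjusted p = 0.00385). Cebpd, at 22.0 to 45.2 CPM over all libraries, and Esrra, at 64.1 to 124 CPM, were not called in either fit.

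Of 19 glucocorticoid and FoxO response genes, 15 had their highest level in mouse 3 and 6 lay at least 2-fold above the next library there. Over all genes these shares were 32.0% and 2.12%. The median difference of the list was 0.89 on the log2 CPM scale, beside -0.006 over all genes. Without mouse 3, 4 of the 19 were called higher and 7 lower, beside 7.82% and 11.0% of all genes. This list, too, was made with earlier results of these data known, so nothing is read from these counts. Zbtb16, a transcription factor induced by glucocorticoids, had the same library order as Plin2 and Pdk4, with 9.30 and 12.6 CPM in the controls and 17.1, 35.0 and 123 CPM in the Ksp-Cre mice. Zbtb16 was not called with all libraries (edgeR, adjusted p = 0.213), and it was called higher without mouse 3 (adjusted p = 0.025). Igfbp1, a liver and kidney gene repressed by insulin through FoxO factors, measured 2.50 to 3.59 CPM in the other 4 libraries and 20.6 CPM in mouse 3. The metallothionein gene Mt2 measured 47.3 to 79.5 CPM in the other 4 libraries and 229.5 CPM in mouse 3. The 1 gene of this list called with all libraries was lower: Trim63, a ubiquitin ligase, measured 42.4 and 45.1 CPM against 13.3, 16.01 and 17.2 CPM (edgeR, adjusted p = 0.0337). The call of Trim63 was lost in the same 5 settings as that of Lpl.

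Of 13 hypoxia response genes, 0 were called with all libraries and 0 higher and 3 lower without mouse 3, and the median difference between mouse 3 and the other mice was -0.02. Ndrg1 was highest in mouse 3, at 4575 CPM against 1568 to 2170 CPM. Vegfa was lowest there, at 197 CPM against 450.2 and 392 CPM in the controls and 246.5 and 245.6 CPM in Ksp-Cre mice 1 and 2. Higd1a and Car9 were below both controls in all 3 Ksp-Cre mice, at 37.9 to 52.9 CPM against 69.7 and 71.3 CPM and at 3.18 to 3.87 CPM against 4.85 and 8.25 CPM. Apart from Ndrg1, no gene of the list lay 2-fold above the next library in mouse 3.

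Apart from the members, the genes with the profile closest to the mean of Plin2, Pdk4 and Cpt1a were found by the root mean square difference of log2 CPM, each profile centred on its own mean over the 5 libraries. The 10 closest, at differences of 0.216 to 0.305, were Prrg4, Kcne4, Fga, Cdkn1a, Cyp27b1, Gm40447, Fgg, Zbtb16, Stra6l and Jaml, of which Zbtb16 is also in a list above. Fga, which encodes a fibrinogen chain, measured 84.3 and 82.1 CPM in the controls, and 139, 188 and 931 CPM in the Ksp-Cre mice. Cdkn1a, the cell cycle inhibitor p21, measured 17.4 and 17.7 CPM against 30.3, 32.1 and 173 CPM. In both, all 3 Ksp-Cre mice lay above both controls and mouse 3 was the highest, and both were called higher without mouse 3 only (edgeR, adjusted p = 0.003 and 0.00252). Cyp27b1, the enzyme that makes active vitamin D, measured 37.6 and 33.7 CPM against 36.7, 60.5 and 365 CPM. A likeness over 5 libraries rests mostly on 1 of them.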

How the data were processed

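RNA-seq libraries of kidney cortex from 5 mice after UIRI were grouped by the genotype in the labels. The members and gene lists were chosen with earlier results of these data known. The authors selected mRNA with oligo(dT), sequenced paired ends of 150 bp on an MGI instrument, removed adapters and reads of low quality, and deposited the raw count per gene without normalization. They also deposited TPM and FPKM, which scale that count by gene length and library total. Recomputed from the counts, both agree within rounding. The submitters' processing notes name CASAVA, featureCounts 2.0.1, DESeq2 1.16.1 and hg38, a human build, with no role for each. The aligner, the mouse build and the use of strand are not given in the sources used here, so overlapping genes are uncertain. Coordinates of the deposited tables differ from GRCm38. Mitochondrial genes are not analysed here. The broken lines of 5 genes were rejoined.

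Totals were 14939040 to 16425161 counts per library, and no 2 libraries agree within sampling noise (chi-square per degree of freedom 9.89 or more). Nothing beyond the mouse number in the labels ties a library to a batch. Counts were filtered with filterByExpr (16394 genes), scaled with TMM and tested with edgeR 4.0.16's quasi-likelihood test (R 4.3.3), with p-values adjusted by Benjamini-Hochberg over all genes and a threshold of 0.05. SE is the log2 fold change divided by the root of the F statistic. Log2 CPM used a prior count of 2. Simulated counts with known changes were tested first. Alternatives were DESeq2 1.42.0, other filters and scalings, limma 3.58.1 on log2(FPKM + 1) and log2(FPKM + 0.1), which understate changes of low genes, the mouse number as a block, and leaving out each mouse. Genes named were the members, called genes of each list, the 4 largest fold changes of each list at a mean log2 CPM of at least 1, fixed partners, and the 10 nearest profiles; all others were chosen after their values were seen. Some genes that this rule names are not reported here. Promoters were read from RefSeq (GRCm38.p6). Python 3.11.15 with pandas 2.3.3 and matplotlib 3.10.9 served for tables and plots.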

Additional observations from a re-analysis of the deposited data

How the results depend on the processing

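Of the 9 members, 0 to 2 were called when each mouse was left out, with 2 only when Ksp-Cre mouse 3 was left out, and 0 in every other setting. Their median log2 fold change, 1.28, ranged from 0.24 without that mouse to 1.69 without control mouse 3. Single fold changes stayed within 1 SD of the replicates in all settings fitted except Plin2, Pdk4, Acot1 and Pnpla2 without Ksp-Cre mouse 3 and Cidec, which reached 4.37 without control mouse 3. Cidec was fitted in 8 of the 13 settings. This SD includes Ksp-Cre mouse 3, which widens it. Within it, leaving out that mouse still took Cpt1a from 0.54 to -0.16 and Acot2 from 0.80 to -0.005. The median step of the 9 genes to Ksp-Cre mouse 3, 2.06, was 1.66 to 2.02 under other scalings. Under scaling by library size the median over all genes went from 0.038 to 0.149 and that over the members to 1.36, so both moved by a like amount. The 3 calls in the pathway lists became 15 with DESeq2, 10 without the filter, 0 with the block, and 0 to 51 when each mouse was left out. The 160 calls over all genes, 17 higher and 143 lower, became 1166 with DESeq2 (303 and 863), 471 without the filter (63 and 408), 51 by library size (14 and 37), 69 on log2(FPKM + 1) (18 and 51), 49 on log2(FPKM + 0.1) (15 and 34), and 0 to 3053 when each mouse was left out. The count was 0 without either control or Ksp-Cre mouse 1 or 2, with 1330 to 2514 genes at an unadjusted p under 0.05 by edgeR, and 3053 without Ksp-Cre mouse 3. The cause was not tested.

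The mouse numbers 1 and 3 occur in both genotypes, but nothing says that they mark shared litters or days. The correlations of deviations from the group means were 0.001 for the mice numbered 1 and -0.022 for those numbered 3. With 2 controls, the deviations of 1 are those of the other with the sign reversed. These values therefore cannot decide whether mice of the same number were paired. With the mouse number as a replicate block 0 genes were called, with 2061 at an unadjusted p under 0.05 and 0 members called, and the members' median log2 fold change was 1.23.

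Depth limits Cidec, with 1 to 13 counts in 4 libraries, and the adipocyte markers. The p-values rest on 2 and 3 mice. Mouse 3 is 1 animal, so its levels have no replicate.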
